A study of Mus musculus with 8 samples.

Results

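The Fc gamma receptors of RAW264.7 macrophages, the activating receptor genes Fcgr1, Fcgr3 and Fcgr4, the inhibitory receptor gene Fcgr2b and the shared signalling chain gene Fcer1g, were followed after an siRNA against Ypel5. They were taken by gene name from the non-normalized array table, where 7 of its 25697 probes (5 of 18136 gene names) belong to them. Fcgr2b is read by 3 probes and each of the others by 1. RAW264.7 is a virus-transformed macrophage line from Balb/c mice. Its cells had been transfected with HiPerfect reagent 24 h before total RNA was taken, either with 1 Ypel5-specific siRNA or with a scrambled control siRNA, so both groups share the transfection and no untransfected group was analysed here. Each group has 4 Illumina bead arrays of biotin-labelled cRNA, which the array titles place on 1 chip. The descriptions number the replicates 1 to 4 in each group, but the source names carry only the numbers 1 and 2, with 3 scrambled arrays under number 1 and 3 Ypel5 siRNA arrays under number 2. Nothing in the labels says that the arrays came from separate cultures, so every p-value below rests on array-to-array spread that may be technical.

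Fc gamma receptors bind the constant part of immunoglobulin G and let macrophages take up or respond to antibody-coated particles. In mice the ligand-binding chains of the activating receptors FcγRI (Fcgr1), FcγRIII (Fcgr3) and FcγRIV (Fcgr4) assemble with the Fc receptor gamma chain (Fcer1g), which carries the ITAM, a tyrosine motif that recruits the kinase Syk once Src family kinases have phosphorylated it. FcγRIIB (Fcgr2b) instead carries an inhibitory motif, the ITIM, in its own tail and recruits the lipid phosphatase SHIP-1 (Inpp5d), so the balance of activating and inhibitory receptors sets how strongly a macrophage responds to immune complexes. Interferons are known to raise activating Fc gamma receptors in macrophages, and the study's title concerns Ypel5 as a regulator of interferon-beta. Whether interferon has a part in the values below was not tested.

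Of the 7 probes, 6 from 4 genes could be tested, since the Fcer1g probe was not detected on any array. Fcgr3 and Fcgr4 rose after the Ypel5 siRNA, by 1.83-fold and 1.58-fold. Fcgr1 was 1.18-fold higher with an adjusted p that missed the threshold, and none of the 3 Fcgr2b probes passed. The count of 2 higher and 0 lower of 6 tested probes stands beside 2.25% higher and 1.45% lower (3.70% in either direction) of all 11364 probes tested (limma, adjusted p under 0.05). All 6 had a change above 0, as had 48.8% of all probes. However, 3 of the 6 read the same gene, Fcgr2b, so they are not separate genes. Of these, ILMN_1228657 and ILMN_3029178 could turn sign with 1 array left out. ILMN_3029178 met the detection filter through 1 scrambled and 3 Ypel5 siRNA arrays.

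The genes behind these readings differ in the reference genome sequence around their transcription start. In the RefSeq gene order Fcgr2b, Fcgr4 and Fcgr3 follow one another on chromosome 1 and Fcgr1 lies on chromosome 3. The windows of 250 bases before to 50 bases after the start are shown for the receptors that rose, for Fcgr1 and for Fcgr2b, so that the promoters can be set beside the changes that follow. They are RefSeq sequences of build GRCm38.p6, read 5′ to 3′ along the gene: chr1:171059354-171059653 (minus strand) for 1 of the 2 listed Fcgr3 starts, chr1:171018676-171018975 (plus strand), chr3:96293920-96294219 (minus strand) and chr1:170976022-170976321 (minus strand). The window of the other Fcgr3 start is not shown, and its matches are not part of what follows on Fcgr3. Capitals mark matches on either strand to GAGGAA, the core bound by the myeloid factor PU.1, to TTCNNNGAA, the form of a STAT site (GAS), or to the form of an interferon-stimulated response element (ISRE), which is GAAA, then NN, then GAAA again.
Fcgr3: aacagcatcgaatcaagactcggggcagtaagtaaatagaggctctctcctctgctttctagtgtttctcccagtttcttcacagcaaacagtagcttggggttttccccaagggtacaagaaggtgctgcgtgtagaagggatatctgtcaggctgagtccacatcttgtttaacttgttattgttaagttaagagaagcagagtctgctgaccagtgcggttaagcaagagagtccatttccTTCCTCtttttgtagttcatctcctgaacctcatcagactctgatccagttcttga
Fcgr4: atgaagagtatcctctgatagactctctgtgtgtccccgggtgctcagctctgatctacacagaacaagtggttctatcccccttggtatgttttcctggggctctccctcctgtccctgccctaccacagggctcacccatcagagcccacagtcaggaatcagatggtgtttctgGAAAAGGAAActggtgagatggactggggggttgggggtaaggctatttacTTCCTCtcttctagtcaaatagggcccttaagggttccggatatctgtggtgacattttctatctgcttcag
Fcgr1: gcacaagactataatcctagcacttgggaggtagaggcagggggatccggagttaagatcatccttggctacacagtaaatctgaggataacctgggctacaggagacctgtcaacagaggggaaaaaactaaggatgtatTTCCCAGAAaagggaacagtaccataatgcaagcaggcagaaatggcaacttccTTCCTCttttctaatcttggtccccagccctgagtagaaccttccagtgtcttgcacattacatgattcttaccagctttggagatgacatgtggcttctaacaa
Fcgr2b: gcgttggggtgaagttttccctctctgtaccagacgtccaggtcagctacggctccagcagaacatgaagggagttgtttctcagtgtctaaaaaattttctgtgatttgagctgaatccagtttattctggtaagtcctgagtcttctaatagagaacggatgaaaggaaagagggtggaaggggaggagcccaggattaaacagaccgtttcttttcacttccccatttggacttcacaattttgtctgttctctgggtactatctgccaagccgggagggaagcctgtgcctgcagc
The PU.1 core was found in the windows of Fcgr3 (bases -6 to -1 from the start), Fcgr4 (-22 to -17) and Fcgr1 (-55 to -50), each time as TTCCTC on the strand shown, and Fcgr2b has no match. It occurs in 28.3% of all 32851 windows of this length. The GAS form was found in Fcgr1 (-109 to -101), against 8.3% of all windows, and the ISRE form in Fcgr4 (-73 to -64), against 3.44%. No searched motif overlaps another in these windows. Fcgr3 and Fcgr1 share a run of 14 bases, TTCCTTCCTCTTTT, that holds the PU.1 core of both and starts at base -10 of Fcgr3 and -59 of Fcgr1. The longest run shared by any other pair of these 4 windows has 10 bases (Fcgr3 and Fcgr4). A match describes letters and not a bound site. The letters are those of the reference genome, and whether the Balb/c-derived RAW264.7 cells carry the same sequence was not tested.

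Some facts of all arrays bear on these values. Each array detected 11249 to 11612 probes, and precision is limited by there being 4 arrays a group. The Ypel5 siRNA arrays were brighter before normalization, with a median intensity of 209.5 ± 14.6 against 189 ± 6.26 (SD over 4 arrays each; exact permutation p = 0.0857, two-sided, where 0.0286 is the smallest possible), so the unnormalized intensities below carry this difference and the normalized values do not. The single Ypel5 probe was detected on 0 of 8 arrays (normalized log2 4.61 to 4.90), so the arrays cannot show whether Ypel5 mRNA fell. The directions are those of arrays labelled Ypel5 siRNA against arrays labelled scrambled siRNA. Of 10 macrophage markers 8 were measured, among them Csf1r, Cd68, Adgre1 and Lyz2, and none passed the threshold, while Itgam was detected on 1 array and Mertk on none. The 8 include the receptor gene Fcgr1 itself, which had the largest change of them (log2 0.23, limma adjusted p = 0.0824). The 4 B cell markers on the array, among them Ms4a1, were detected on no array, and so were all 4 fibroblast markers. Single markers of other cells were detected on all 8 arrays without passing the threshold, namely Lck of T cells (log2 0.14), Prf1 of NK cells (log2 -0.46, limma adjusted p = 0.221) and S100a8 of neutrophils (log2 0.12), and their part in the results was not tested.

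Fcgr3 encodes the activating low-affinity receptor FcγRIII. Its unnormalized intensity was 696, 658, 582 and 622 on scrambled replicates 1 to 4 and 1401, 1285, 1078 and 1112 on Ypel5 siRNA replicates 1 to 4. Every Ypel5 siRNA array lay above every scrambled array, with a wide gap between the groups. The normalized log2 intensity was 9.04 ± 0.104 with scrambled siRNA and 9.92 ± 0.162 with Ypel5 siRNA (SD, n = 4 each), a change of log2 0.87 (SE 0.091, limma adjusted p = 0.00367). The 95% interval of the fold ran from 1.59 to 2.12, and the rise ranked number 24 among 11364 probes both by size and by p. With any single array left out the change stayed between log2 0.82 and 0.95 and past the threshold, and without both replicate 1 arrays, whose detection p-values were deposited at a coarser resolution, it was log2 0.91 (adjusted p = 0.0421).

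Fcgr4 encodes FcγRIV, an activating receptor of mouse macrophages that binds IgG2a and IgG2b. Its unnormalized intensity was 263, 277, 248 and 263 on scrambled replicates 1 to 4 and 398, 353, 359 and 373 on Ypel5 siRNA replicates 1 to 4. The groups did not overlap, and the lowest Ypel5 siRNA array was well above the highest scrambled array. The normalized log2 intensity was 6.85 ± 0.080 with scrambled siRNA and 7.52 ± 0.136 with Ypel5 siRNA (SD, n = 4 each), a change of log2 0.66 (SE 0.079, limma adjusted p = 0.00560). The 95% interval of the fold was 1.40 to 1.79. Without background correction the change was log2 0.31 (adjusted p = 0.00203), so its size rests on that step. It was log2 0.69 without both replicate 1 arrays (adjusted p = 0.0498).

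Fcgr1 encodes FcγRI, the high-affinity receptor for monomeric IgG. Its unnormalized intensity was 897, 835, 838 and 930.1 on scrambled replicates 1 to 4 and 1312, 1170.1, 1035 and 1163 on Ypel5 siRNA replicates 1 to 4. The groups did not overlap on this scale or after normalization, where the scrambled arrays lay between log2 9.49 and 9.67 and the Ypel5 siRNA arrays between 9.77 and 9.92. The change of log2 0.23 (SE 0.062, fold 95% interval 1.07 to 1.30) had a limma adjusted p of 0.0824 and did not pass. It passed without background correction (log2 0.19, adjusted p = 0.0401) and with an intensity trend and robust estimation of the variance together (adjusted p = 0.0390). Groups without overlap, seen for 3 of the 6 tested probes (Fcgr1, Fcgr3 and Fcgr4, all higher), occurred in that direction for 7.02% of all probes tested and in the lower direction for 6.96%.

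**Figure D1:**
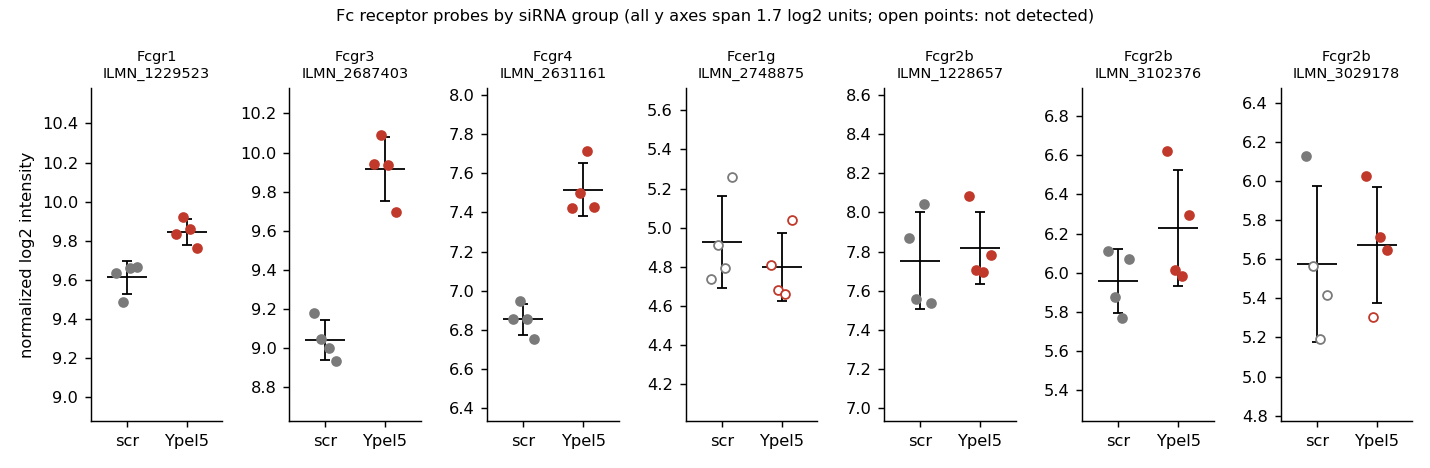
Normalized log2 intensity (y axis, the same span in every panel) of the 7 Fc receptor probes on the 4 scrambled (grey) and 4 Ypel5 siRNA arrays (red), with mean and SD in black; open points were not detected. The Fcgr3 groups lie at 9.04 and 9.92 and the Fcgr4 groups at 6.85 and 7.52 without overlap, while the groups overlap for Fcer1g and for all 3 Fcgr2b probes.

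Fcgr2b encodes the inhibitory receptor FcγRIIB, and its 3 probes differed in brightness. The brightest, ILMN_1228657, was detected on all 8 arrays, with unnormalized intensities of 374, 339.9, 374 and 338 on scrambled replicates 1 to 4 and 521, 385, 356 and 427 on Ypel5 siRNA replicates 1 to 4. Its groups overlapped, and Ypel5 siRNA replicate 1 was the brightest array. The normalized log2 intensity was 7.75 ± 0.248 with scrambled siRNA and 7.82 ± 0.183 with Ypel5 siRNA (SD, n = 4 each), a change of log2 0.06 (SE 0.14, limma adjusted p = 0.840). The 95% interval of the fold, 0.843 to 1.30, leaves out the 1.83-fold and the 1.58-fold seen for Fcgr3 and Fcgr4 and includes the 1.18-fold seen for Fcgr1; the differences themselves are tested below within arrays.

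The dimmer Fcgr2b probes gave wider intervals. ILMN_3102376, detected on all 8 arrays, read 220.3, 217, 197 and 225 on scrambled replicates 1 to 4 and 307, 234, 222 and 269.6 on Ypel5 siRNA replicates 1 to 4. These groups overlapped through Ypel5 siRNA replicate 3, and Ypel5 siRNA replicate 1 was again the brightest array. After normalization the probe went from log2 5.96 ± 0.162 to 6.23 ± 0.296 (SD, n = 4 each), a change of log2 0.27 (SE 0.15, limma adjusted p = 0.366). ILMN_3029178, with intensities of 221, 205, 179 and 200.3 against 266, 205, 211 and 236, was detected on 1 scrambled and 3 Ypel5 siRNA arrays and was at log2 0.10 (SE 0.21, adjusted p = 0.849), with overlapping groups. The upper ends of their fold intervals reached at most 1.53. The probe sequences are not in the files used here. Fcgr2b and Fcgr3 are close relatives in the part that binds IgG, so whether a probe of one also reads the other was not tested.

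Fcer1g encodes the gamma chain that the activating receptors share. Its probe was detected on 0 of 4 scrambled and 0 of 4 Ypel5 siRNA arrays, with intensities of 168, 181, 164 and 195 on scrambled replicates 1 to 4 and 202, 174, 165 and 208 on Ypel5 siRNA replicates 1 to 4. The groups overlapped and were not well above background, so a fold cannot be given. This reading does not show that the transcript is missing from these cells.

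**Figure D2:**
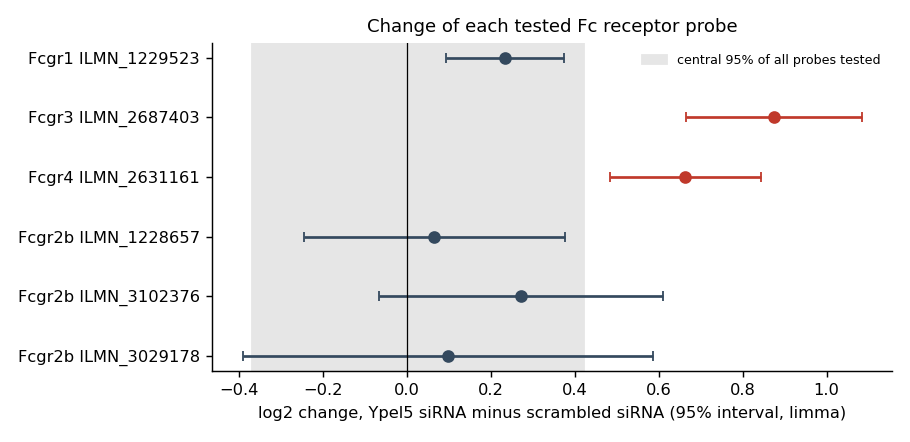
Change of each of the 6 tested Fc receptor probes in log2 units (x axis, Ypel5 siRNA minus scrambled siRNA) with its 95% interval, red where the limma adjusted p was under 0.05. The grey band holds the central 95% of all 11364 probes, from -0.37 to 0.42, and the estimates for Fcgr3 (0.87) and Fcgr4 (0.66) lie to its right.

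Whether the activating receptors changed more than the inhibitory one was read within arrays, as the log2 intensity of each activating probe minus that of the brightest Fcgr2b probe. Levels of different probes are not comparable, so each value is given relative to the scrambled mean. For Fcgr3 against Fcgr2b the scrambled arrays lay at 0.02, 0.20, -0.34 and 0.11 and the Ypel5 siRNA arrays at 0.56, 1.10, 0.95 and 0.63 (replicates 1 to 4). All 4 Ypel5 siRNA arrays were above all scrambled arrays, and the shift was log2 0.81 (SE 0.17, two-sided exact permutation p = 0.0286, the smallest that 4 against 4 arrays allow, and 0.0857 adjusted over the 3 pairs compared).

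For Fcgr4 against Fcgr2b the shift was log2 0.60 (SE 0.19, exact permutation p = 0.0571, adjusted 0.0857). Here the groups touched, since Ypel5 siRNA replicate 1 at 0.24 lay below scrambled replicate 2 at 0.29. For Fcgr1 against Fcgr2b it was log2 0.17 (SE 0.15, exact permutation p = 0.286, adjusted 0.286), with overlapping groups. None of the 3 pairs thus passed after adjustment. A pair that is alone at the smallest possible p gets an adjusted 0.0857, so Fcgr3 could not pass unless another pair was at that p as well. Without Ypel5 siRNA replicate 1, the array with the brightest Fcgr2b signal, the shifts of Fcgr3 (log2 0.89) and Fcgr4 (log2 0.72) both had an adjusted exact p of 0.0429. Both were then at the smallest possible unadjusted p. Both shifts subtract the same Fcgr2b values, and a high Fcgr2b value on a Ypel5 siRNA array lowers both, so they are not separate support. After normalization that array was at log2 8.08 for Fcgr2b, close to scrambled replicate 3 at 8.04. Leaving out any of the other 7 arrays in turn gave 0.0857 for Fcgr3 and 0.0857 to 0.129 for Fcgr4, so neither passed. Fcgr3 was at the smallest possible unadjusted p in each of these cases as well. Without background correction the Fcgr4 shift was log2 0.28 (adjusted exact p = 0.129). Against the dimmer Fcgr2b probe detected on all arrays, ILMN_3102376, Fcgr3 shifted by log2 0.60 without overlap of the groups. Against that probe Fcgr4 shifted by log2 0.39 (unadjusted exact permutation p = 0.114) and Fcgr1 by log2 -0.04 (unadjusted exact p = 0.743), both with overlapping groups, and the sign for Fcgr1 is opposite to that with the brightest probe. Against ILMN_3029178, the Fcgr2b probe not detected on 4 arrays, Fcgr3 shifted by log2 0.78 without overlap of the groups. Fcgr4 shifted by log2 0.57 against it (unadjusted exact permutation p = 0.0571) and Fcgr1 by log2 0.14 (unadjusted exact permutation p = 0.657), both with overlap.

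**Figure D3:**
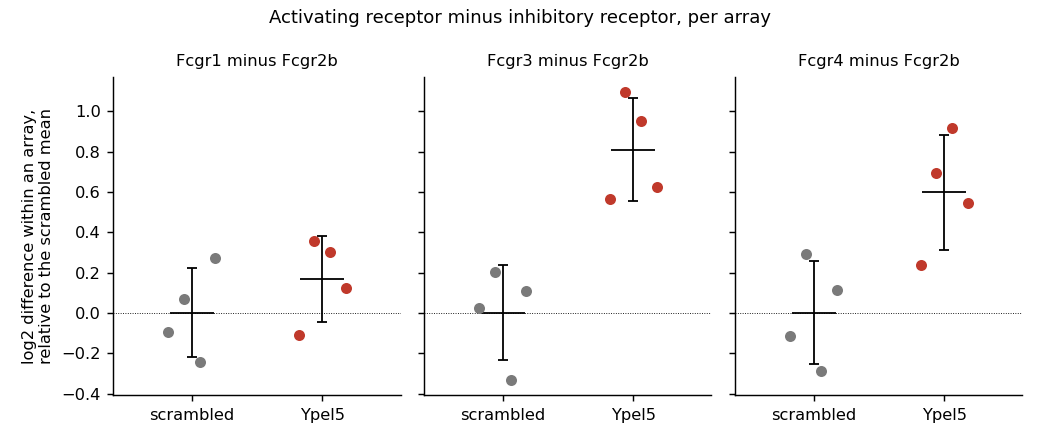
Within-array log2 difference between each activating receptor and Fcgr2b (y axis, relative to the scrambled mean) on the 4 scrambled (grey) and 4 Ypel5 siRNA arrays (red), with mean and SD in black. The Ypel5 siRNA arrays stand 0.81 higher on average for Fcgr3, 0.60 for Fcgr4 and 0.17 for Fcgr1, and the groups are separate for Fcgr3 alone among these 3 pairs.

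Among the 3 protein-coding genes on either side of each receptor gene, 7 besides the receptors themselves were measured, and 0 passed the threshold. Their changes ran from log2 -0.13 to 0.37 with a median of log2 0.03. Sdhc, a respiratory chain gene beyond Fcgr3, was at log2 -0.13 (limma adjusted p = 0.301). Txnip, which encodes a thioredoxin-binding protein and lies near Fcgr1, was at log2 0.22 (adjusted p = 0.0518). B4galt3 near Fcer1g was at log2 -0.02 (adjusted p = 0.916), and the histone genes H3c13, H4c14 and H2bc18 near Fcgr1 at log2 0.03, -0.13 and 0.37 (adjusted p = 0.822, 0.718 and 0.549).

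Other receptors for antibody did not pass. Of 14 listed genes, 4 were measured and all 4 had a change above 0 (median log2 0.22, against 0.0008 over the 8145 genes each read by its brightest probe). Over those genes 2.50% were called higher and 1.46% lower (3.97% in either direction), which is the background for the lists that follow. The lists were chosen with earlier results of these data known, so a count above that share is a description and no test of a list. Trim21, a cytosolic ubiquitin ligase that binds antibody on incoming viruses, was at log2 0.26 (limma adjusted p = 0.159), and Fcgrt, the neonatal Fc receptor that recycles IgG, at log2 0.18 (adjusted p = 0.427). Fcer1a was at log2 0.34 (adjusted p = 0.416). Other mast cell markers, such as Cpa3 and Ms4a2, were detected on no array.

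The list of ITAM adaptors and receptors known to pair with them held 3 risen and 0 fallen genes of 11 measured (median log2 0.07). The list also counts Hcst (log2 0.06), an adaptor gene whose product carries no ITAM. Clec4n, the fungal receptor dectin-2 that pairs with the Fcer1g chain, rose from log2 8.34 ± 0.063 to 9.13 ± 0.154 (SD, n = 4 each, 1.73-fold, limma adjusted p = 0.00367). Trem3 and Sirpb1a, receptors that pair with the adaptor Tyrobp (DAP12), rose by log2 1.16 (SE 0.12) and 1.08 (SE 0.14), and whether the probe of Sirpb1a also reads its near relatives was not tested. Without background correction the changes were log2 0.76 for Trem3 and 0.36 for Sirpb1a, so their size rests on that step. These 3 calls held with any single array left out and without both replicate 1 arrays. Tyrobp itself was at log2 -0.04 (SE 0.064, adjusted p = 0.807), Trem2 at log2 0.14 (adjusted p = 0.268) and Clec4d at log2 0.06 (adjusted p = 0.551).

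Kinases, adaptors and enzymes of proximal activating signalling held 3 risen and 0 fallen genes of 21 measured (median log2 0.08). These were Vav3, an exchange factor for small GTPases (log2 0.44, SE 0.071, limma adjusted p = 0.0169), the Src family kinase gene Fgr (log2 0.32, SE 0.060, adjusted p = 0.0295) and the adaptor gene Blnk (log2 0.47, SE 0.098, adjusted p = 0.0408). The call of Vav3 was lost without 1 of the 8 arrays in turn, that of Blnk without any of 7 and that of Fgr without any of 8, and none of the 3 passed without both replicate 1 arrays. Without background correction Blnk was at log2 0.27. The other Blnk probe was at log2 0.59 (adjusted p = 0.128). Pik3cg was at log2 0.22 (adjusted p = 0.109) and Plcg2 at log2 0.19 (adjusted p = 0.115), and Syk had no probe that passed the detection filter.

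On the inhibitory side 0 of 10 measured signalling enzymes and adaptors passed, with 9 above 0 and a median of log2 0.03. Inpp5d, the phosphatase that FcγRIIB recruits, was at log2 0.05 (SE 0.061, limma adjusted p = 0.741), and the phosphatase gene Ptpn6 (SHP-1) at log2 0.04 (SE 0.052, adjusted p = 0.752). Dok3 was at log2 0.13 (adjusted p = 0.286) and Dok2 at log2 -0.09 (adjusted p = 0.444). Of 6 measured receptors listed as inhibitory, 1 rose and 0 fell (median log2 0.21). This was the siglec gene Cd33 (log2 0.45, SE 0.098, adjusted p = 0.0450), whose other probe was at log2 0.19 (adjusted p = 0.485) and whose call was lost without any of 7 arrays in turn. Without background correction Cd33 was at log2 0.20, and whether it acts as an inhibitory receptor in these mouse cells was not tested. Cd300a was at log2 0.38 (adjusted p = 0.0777) and Milr1 at log2 0.18 (adjusted p = 0.117).

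Downstream effectors did not pass in the main fit. Of 28 measured genes of the actin machinery of phagocytosis 0 passed and 14 were above 0 (median log2 -0.0016). That count moved with the processing, to 2 higher and 1 lower without background correction. It was 1 higher and 3 lower with an intensity trend and robust variance. Wasf2, an activator of actin branching, was at log2 -0.21 (limma adjusted p = 0.0516) and the cofilin kinase gene Limk1 at log2 0.27 (adjusted p = 0.0825). Of 4 measured NADPH oxidase subunits 0 passed, with changes from log2 -0.05 to 0.10. Cyba was at log2 -0.05 and Ncf1 at log2 0.07 (adjusted p = 0.625 and 0.666).

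Genes known to regulate Fc receptor expression moved both ways, with 2 risen and 1 fallen of 17 measured (median log2 0.04). Il10ra, the binding chain of the interleukin-10 receptor, rose by log2 0.59 (SE 0.12, limma adjusted p = 0.0380) and the interferon-induced factor gene Irf1 by log2 0.40 (SE 0.078, adjusted p = 0.0330). Ifngr2, the signalling chain of the interferon-gamma receptor, fell by 0.38 on the log2 scale (SE 0.064, adjusted p = 0.0187), and its other probes fell by 0.46 and 0.50 (adjusted p = 0.0340 and 0.00922). The calls of Il10ra and Irf1 were each lost without any of 7 of the 8 arrays and that of Ifngr2 without 2 of them, and without both replicate 1 arrays none of the 3 passed. Without background correction Il10ra was at log2 0.25. The other Irf1 probes, at log2 0.14 to 0.34, did not pass. Il10rb was at log2 0.32 (adjusted p = 0.0947) and Spi1, which encodes PU.1, at log2 0.01 (SE 0.060, adjusted p = 0.962).

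**Figure D4:**
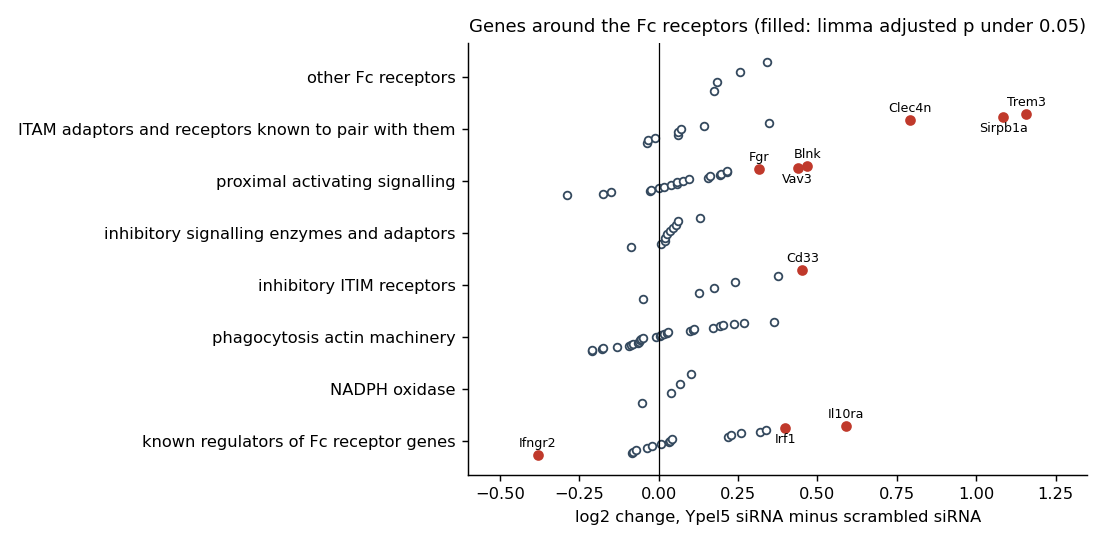
Log2 change (x axis, Ypel5 siRNA minus scrambled siRNA) of each measured gene in 8 lists around the Fc receptors, each gene read by its brightest probe; filled points have a limma adjusted p under 0.05 and are named. The filled points to the right reach 1.16 for Trem3, Ifngr2 is the one filled point below 0, and 4 lists hold none.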

How the data were processed

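The deposited table of 25697 probes and 8 arrays holds, per the file headers, linear intensity values without normalization, each with a detection p-value. Normalized log2 values by the authors are deposited as well, and the submitters' processing notes name RMA, with no version. The array's genome build is not given in the sources used here. Source names gave the groups, descriptions the replicate numbers.

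Intensities were background corrected and quantile normalized together with neqc (limma 3.58.1, R 4.3.3; offset 16, negative controls inferred from the detection p-values). Probes detected at p under 0.05 on at least 4 of 8 arrays (11364) were fitted with lmFit and eBayes, without a block, and p-values were adjusted (Benjamini-Hochberg) over all of them; the fit was tested on simulated data. Where a gene had several probes the brightest stood for it in lists. Symbols were updated through the RefSeq gene table of GRCm38.p6 (20734 probes current, 3875 renamed by synonym, 127 by identifier, 961 kept as in the file). Within-array differences were compared by exact permutation tests over arrays.

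The members, lists and tests were chosen with earlier results of these data known. Named were all member probes, 8 further genes fixed by name, the called members of each list with up to 2 others of smallest p, the neighbours, and the 3 genes most like each receptor; a few genes under this rule are not reported here. Correlations of deviations between equally numbered arrays ran from 0.00346 to 0.161, so the numbers were not taken to pair the arrays. The alternatives changed the block, background, offset, normalization, filter, probe choice, variance model and arrays.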

Additional observations from a re-analysis of the deposited data

How the results depend on the processing

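Fcgr3 and Fcgr4 were past the threshold in all 20 alternatives, with log2 changes of 0.71 to 0.95 and 0.31 to 0.73 and adjusted p of up to 0.0421 and 0.0498. Both largest values came from leaving out replicate 1 of both groups. With the replicate number as a block the adjusted p was 0.0379 for Fcgr3, 0.0456 for Fcgr4 and 0.187 for Fcgr1, and no call of a receptor probe changed. The block also left 3 calls among ITAM adaptors and their receptors, but 1 in activating signalling and 0 in the inhibitory receptor and regulator lists. Fcgr2b stayed below the threshold in every alternative that gave it a value; its sign turned for ILMN_1228657 without Ypel5 siRNA replicate 1 (log2 -0.023) or scrambled replicate 4 (log2 -0.0067), and for ILMN_3029178 without scrambled replicate 3 (log2 -0.031). With 1 array left out these probes reached at most log2 0.163 and 0.219, and ILMN_3102376 ranged from log2 0.14 (without Ypel5 siRNA replicate 1) to 0.35. With the source name number as a block ILMN_3102376 was at log2 0.43 (adjusted p = 0.210) and ILMN_1228657 at log2 0.22 (adjusted p = 0.457).

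Over all probes the count past the threshold moved more. It was 421 (60.8% higher), 104 with the replicate block, 121 with the source name number as a block, 786 without background correction, 787 with the deposited log2 values, 906 with an intensity trend and robust variance, 158 without a detection filter and 62 without both replicate 1 arrays. With only a common median per array it was 234, of which 87.2% were higher (204 higher and 30 lower), and Fcgr3 and Fcgr4 passed there at log2 0.95 and 0.73. Leaving out 1 array gave 180 to 263. The shift against Fcgr2b, with 1 array left out, ranged from log2 0.70 to 0.89 for Fcgr3, 0.49 to 0.72 for Fcgr4 and 0.09 to 0.26 for Fcgr1. It was log2 0.28 for Fcgr4 without background correction and with the deposited values, and with the source name number as a block log2 0.66 for Fcgr3, 0.38 for Fcgr4 and 0.052 for Fcgr1. With the replicate number as a block the adjusted exact p was 0.188 for Fcgr3 and Fcgr4 and 0.5 for Fcgr1, where such a block cannot give an unadjusted p below 0.125. The causes of these moves were not tested. Signal over background limits what Fcer1g and the dimmest Fcgr2b probe can show.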

Other observations

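Each receptor gene had other genes with a similar profile over the 8 arrays, given here by Pearson correlation of normalized log2 intensity as a description. The arrays fall into the siRNA groups, so a gene that differs between them correlates with any other that does. For Fcgr3 the most similar genes were Samsn1, an adaptor of haematopoietic cells (r = 0.993), Slc15a3, a lysosomal peptide transporter (r = 0.988), and Zyx, the focal adhesion protein zyxin (r = 0.987). Their own changes were log2 0.45, 0.56 and 0.47. With group means removed the correlations were 0.934, 0.818 and 0.795. These genes were picked for the highest correlation on the same 8 arrays, so these values give no separate support for a link. For Fcgr4 they were Niban1 (r = 0.985), Gclm, which acts in glutathione synthesis (r = 0.982), and the carbonyl reductase gene Cbr3 (r = 0.978), with changes of log2 0.42, 0.47 and 0.91. For Fcgr1 they were Hbp1, Tuba1a and Lxn (r = 0.970, 0.958 and 0.958). For Fcgr2b they were Rgs14, Piwil2 and Slc29a2 (r = 0.948, 0.926 and 0.916), whose changes of log2 0.09 to 0.11 did not pass the limma threshold (adjusted p from 0.649 to 0.835).

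Fcgr3 and Fcgr4 correlated with each other at r = 0.95 over the 8 arrays and at 0.321 once group means were removed. The brightest Fcgr2b probe correlated with the other Fcgr2b probes at only 0.385 and 0.283, and those correlated with each other at 0.656.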
